A study of Mus musculus with 8 samples.

Results

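The 9 genes described here encode subunits of the AP-1 transcription factor or its close relatives: Fos, Fosb, Fosl1 and Fosl2 of the Fos family, Jun, Junb and Jund of the Jun family, and Atf3 and Batf3. They were taken by name from the 21911 protein-coding genes of GENCODE M21. Each locus was the gene body with 50 kb on each side (mouse build mm10). The loci held 151 of the 84777 consensus open chromatin regions of the series, where a consensus region is a stretch of merged peaks called in at least 2 libraries. Of these 151, 10 lay within 1 kb of a start site of the gene itself (Atf3 has 2 such regions), 49 lay within 1 kb of another gene's start site, and 92 were distal to every annotated start site. The Atf3 and Batf3 loci adjoin, and 5 regions fall in both windows and are counted once in all totals.

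SN4741 is a mouse cell line derived from the embryonic day 13.5 substantia nigra, and ATAC-seq, which cuts open chromatin with the Tn5 transposase, was performed on 8 libraries from it. All cells carry the temperature-sensitive SV40 T antigen tsA58 driven by a tyrosine hydroxylase promoter. At 37°C, the permissive temperature, 4 libraries were made from cells in 10% serum. At 39°C, the non-permissive temperature, 4 libraries were made after 48 hours in 0.5% serum. Temperature and serum therefore changed together, and their effects cannot be told apart. The line is reported as a single clone with an unstable polyploid karyotype, so copy number at these loci may vary between cultures. The labels do not say whether the replicates were separate cultures, so p-values measure only the spread between these libraries.

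Libraries at 37°C kept 49.8 to 169 M fragments and those at 39°C 52.7 to 71.2 M, with replicates 1 and 4 at 37°C by far the deepest. The peak lists held 74026 to 92013 peaks at 37°C and 54845 to 68410 at 39°C, and covered 89.7 to 133 Mb and 65.4 to 89.1 Mb, respectively. List length and covered length thus moved with temperature, and their part in the differences below was not tested except where stated. Among cell type markers, peaks were present in all 8 libraries at the promoters of 5 of 6 neural precursor genes, 4 of 5 neuronal genes, 2 of 5 astrocyte and oligodendrocyte genes, 5 of 5 mesenchymal genes and 1 of 2 blood cell genes. Of all coding genes, 59.9% had a promoter peak in all 8. No library had a promoter peak at Dcx, Fabp7, Olig2, Mog or Ptprc. In the comparison of shared regions described later, 6 of the 17 marker promoters tested were called. Those of the precursor genes Nes and Sox2, the neuronal gene Th and the mesenchymal gene Col1a2 ranked lower at 39°C. Those of Aqp4 (astrocytes) and Twist1 (mesenchyme) ranked higher. Over all promoter regions, 18.9% were called lower and 12.6% higher. The part of these markers in the results at the AP-1 loci was not tested. An open promoter is not evidence of expression.

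AP-1 is a dimer of basic leucine zipper proteins: Jun proteins pair with each other or with Fos proteins, while Fos proteins need a Jun partner. Fos, Fosb, Jun and Junb are immediate early genes, induced within minutes by serum, growth factors and stress through kinases that act on factors already bound at their promoters. Fosl1 and Fosl2 follow later and lack the strong activation domain of Fos, Atf3 is a stress-induced member that often represses, and Batf3 pairs with Jun proteins and is best known for its role in dendritic cells. The dimers bind the 7-base motif TGANTCA, and many AP-1 genes are themselves targets of AP-1.

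The sequences below are the core promoter of Fos, the classic serum-responsive gene, and the 6 distal regions outside exons with the smallest p in the comparison of shared regions described later. They are GRCm38 (mm10) sequence on the plus strand, the promoter from RefSeq. The Fos promoter spans chr12:85473640-85473889, the 250 bases before the start site, with TATAAA in capitals. The distal stretches run 100 bases to each side of the region's summit, with any AP-1 motif (TGANTCA), CRE (TGACGTCA), CArG box, TEAD motif (GGAATG) or p53 decamer in capitals, searched on both strands.
Fos promoter: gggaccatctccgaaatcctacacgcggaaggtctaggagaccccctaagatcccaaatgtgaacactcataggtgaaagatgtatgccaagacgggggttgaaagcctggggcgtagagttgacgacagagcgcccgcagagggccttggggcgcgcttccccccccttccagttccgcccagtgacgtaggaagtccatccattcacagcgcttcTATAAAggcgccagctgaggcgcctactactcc
Atf3 intronic region, 28.0 kb downstream, chr1:191189942-191190142: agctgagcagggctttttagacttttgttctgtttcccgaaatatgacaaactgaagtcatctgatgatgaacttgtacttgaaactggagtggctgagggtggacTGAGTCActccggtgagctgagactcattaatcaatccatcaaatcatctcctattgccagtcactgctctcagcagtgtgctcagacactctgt
Atf3 upstream region, 12.5 kb upstream, chr1:191230462-191230662: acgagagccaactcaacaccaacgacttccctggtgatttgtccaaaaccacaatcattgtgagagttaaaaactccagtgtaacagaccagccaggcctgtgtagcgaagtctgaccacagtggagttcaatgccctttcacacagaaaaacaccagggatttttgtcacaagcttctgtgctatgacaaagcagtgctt
Atf3 intronic region, 24.1 kb downstream, chr1:191193809-191194009: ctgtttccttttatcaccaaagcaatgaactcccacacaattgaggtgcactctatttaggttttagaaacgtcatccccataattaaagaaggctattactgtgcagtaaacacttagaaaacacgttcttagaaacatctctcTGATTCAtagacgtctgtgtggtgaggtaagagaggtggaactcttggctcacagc
Fos downstream region, 23.9 kb downstream, chr12:85497704-85497904: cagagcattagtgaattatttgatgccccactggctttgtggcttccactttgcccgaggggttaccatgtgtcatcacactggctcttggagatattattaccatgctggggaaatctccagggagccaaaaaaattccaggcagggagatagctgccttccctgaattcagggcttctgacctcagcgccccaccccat
Atf3 and Batf3 shared region, chr1:191126072-191126272: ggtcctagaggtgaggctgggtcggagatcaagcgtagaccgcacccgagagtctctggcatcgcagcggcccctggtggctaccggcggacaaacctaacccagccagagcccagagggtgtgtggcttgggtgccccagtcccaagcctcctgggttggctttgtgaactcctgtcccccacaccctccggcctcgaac
Fosb upstream region, 28.7 kb upstream, chr7:19338624-19338824: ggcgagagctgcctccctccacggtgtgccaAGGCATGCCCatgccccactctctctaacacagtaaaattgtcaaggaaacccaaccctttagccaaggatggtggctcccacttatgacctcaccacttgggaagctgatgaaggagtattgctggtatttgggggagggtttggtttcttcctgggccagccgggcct
Both intronic Atf3 stretches hold 1 AP-1 motif each, and the Fosb stretch holds a p53 decamer. The Fos promoter stretch and the other 3 distal stretches hold none of the 5 motifs in these windows. A match is a description of the letters, not evidence of binding.

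All 9 genes had a promoter peak, within 1 kb of an annotated start site, in each of the 8 libraries. Across all coding genes 13128 of 21911 (59.9%) did. Presence therefore did not separate the temperatures at any AP-1 gene. Genome-wide, Fisher's exact test found 0 of the 1918 genes with a promoter peak in 1 to 7 libraries past an adjusted p of 0.05, with 324 at an unadjusted p under 0.05.

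The genes differed widely in how high their promoter peaks stood. The height used here is the percentile of the peak's −log10 q within its own library's list, so that a value near 100 marks one of the highest peaks of that library, and a gene with several promoter peaks is given by its highest, which at Atf3 is the one at the inner start. The value belongs to the whole peak, whose summit can lie away from the start site. The median summit lay 2.19 kb past the gene start at Junb and 1.39 kb past it at Fosb, in an exon of each gene. Fosl2 stood highest, at 99.9 ± 0.0290 (SD, n = 4) at 37°C and 99.8 ± 0.0411 at 39°C. Jund (99.5 ± 0.138 and 99.7 ± 0.0844), Junb (99.2 ± 0.0876 and 99.1 ± 0.166), Atf3 (98.8 ± 0.10 and 98.2 ± 0.312) and Jun (98.1 ± 0.376 and 97.7 ± 0.378) followed. Fos stood at 94.9 ± 1.13 and 94.5 ± 0.309, and Fosb at 92.0 ± 0.445 and 88.4 ± 1.93. Batf3 was lowest by this measure, at 80.8 ± 1.153 and 72.8 ± 2.52. The order of Jund, Junb, Atf3 and Jun was the same at each temperature, and the promoter of Batf3 stood below the highest promoter peak of each of the other 8 genes in all 8 libraries. The upstream Atf3 promoter stood lower still, at 73.4, 72.7, 65.3 and 75.3 at 37°C and 59.3, 63.9, 62.5 and 54.2 at 39°C.

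**Figure D1:**
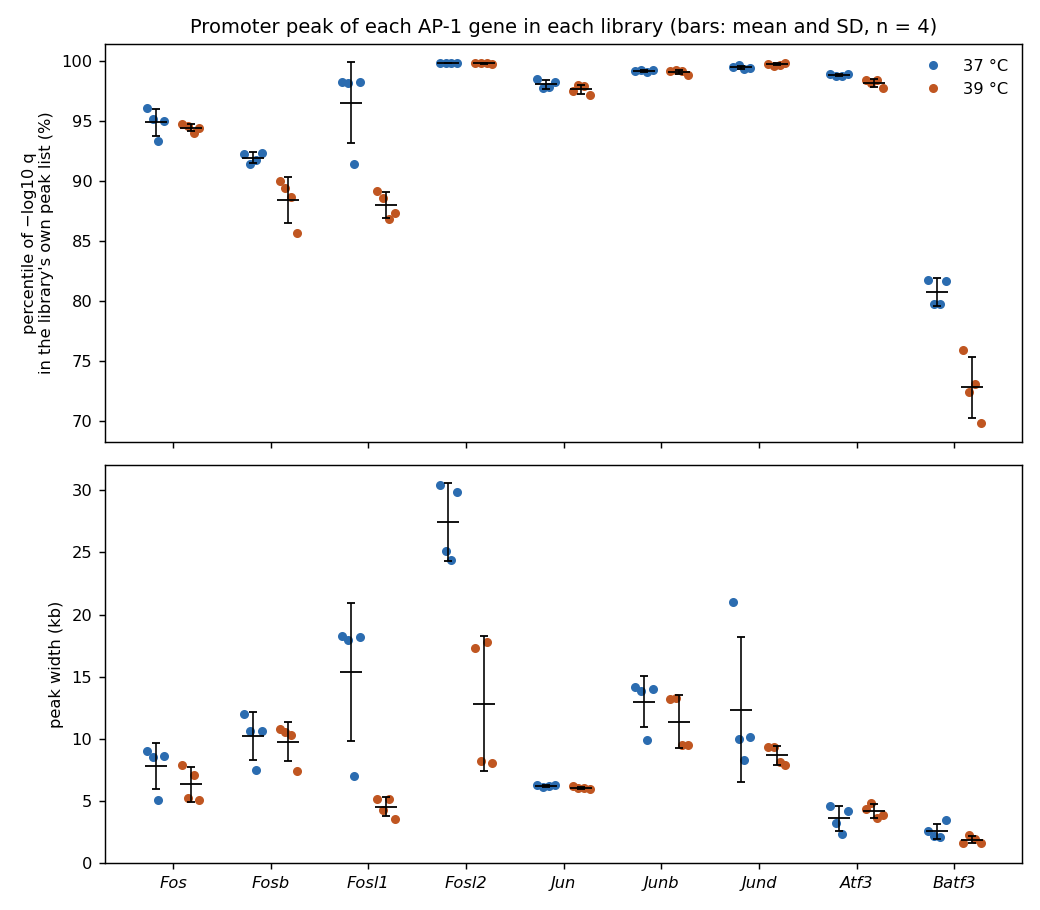
Highest promoter peak of each AP-1 gene in the 4 libraries at 37°C (blue) and the 4 at 39°C (orange). The upper panel gives the percentile of −log10 q within the library's own list (%), and the lower panel the peak width (kb). Points are libraries, and black marks are the mean and SD. Batf3 sits lowest in the upper panel, and Fosl2 and Fosl1 show the widest gap between temperatures in the lower panel.

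Fosl1, chr19:5447547-5455946, encodes Fra-1. Its promoter percentile was 98.3, 98.2, 91.5 and 98.3 in replicates 1 to 4 at 37°C and 89.2, 88.6, 86.8 and 87.4 at 39°C. The peak was 18280, 17933, 7021 and 18203 bp wide at 37°C and 5152, 4288, 5153 and 3547 bp at 39°C. In replicates 1, 2 and 4 at 37°C the peak ran beyond the gene and was joined with that of the neighbouring gene Ccdc85b, in an exon of which the summit of the joined peak lay, 9.79 kb past the start of Fosl1. The percentiles of those 3 libraries are therefore heights at Ccdc85b, and do not compare with the others. In the other 5 libraries the Fosl1 promoter peak was separate, and of these 37°C replicate 3 (91.5) stood above the 4 at 39°C, with 1 library at 37°C and so no test. The highest peak of the merged region was another one in these 5 libraries as well, so that values of the merged region are not of the Fosl1 start site in any library.

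Batf3, chr1:191097847-191108945, had promoter percentiles of 81.8, 79.8, 79.7 and 81.7 at 37°C and 76.0, 72.4, 73.1 and 69.8 at 39°C. Every library at 39°C lay below every library at 37°C, as at 52.4% of the 13128 coding genes with a promoter peak in all 8. The promoter of Fosb, chr7:19302696-19310051, likewise stood at 92.3, 91.5, 91.7 and 92.4 at 37°C and at 90.0, 89.4, 88.7 and 85.7 at 39°C, again without overlap. In these bulk libraries, fewer cells with open chromatin at a site and less open chromatin in each cell cannot be told apart. The percentile of Atf3, chr1:191170296-191218039, fell by 0.631 points, from 98.7 to 98.9 at 37°C to 97.8 to 98.4 at 39°C.

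These within-list percentiles depend on how many weak peaks each list holds. Promoter and distal regions called in all 8 libraries were therefore ranked among the 44861 such regions alone, where every library has the same number of entries. The ranks were converted to normal scores and fitted with limma, with Benjamini-Hochberg adjustment over all 44861 regions. On this scale 1 of the 10 merged promoter regions of the AP-1 genes was called, Jund, and it was higher at 39°C. Genome-wide, 18.9% of 16198 promoter regions were called lower and 12.6% were called higher.

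Jund, chr8:70698949-70700616, encodes the most constitutive of the Jun proteins. Its promoter region ranked at 99.0, 99.4, 99.0 and 98.8 at 37°C and at 99.7, 99.5, 99.5 and 99.8 at 39°C among shared regions. The 4 libraries at 39°C lay above the 4 at 37°C, although 37°C replicate 2 came close to the lowest of them. The score rose by 0.33 ± 0.10 (SE; adjusted p = 0.0175). Jund's call was lost without 37°C replicate 4 (0.290, adjusted p = 0.0695), without 39°C replicate 4 (0.270, adjusted p = 0.0584) and without both deep libraries (0.259, adjusted p = 0.134).

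The other promoters gave score differences between −0.098 for the upstream Atf3 start and 0.084 for Fos, with adjusted p of 0.165 to 0.927 in limma. Batf3 ranked at 65.5 ± 1.92 at 37°C and 62.9 ± 2.55 at 39°C (−0.071 ± 0.041, adjusted p = 0.182), and Fosb at 85.5 ± 0.843 and 84.1 ± 1.32 (−0.061 ± 0.036, adjusted p = 0.184). Fos ranked at 90.9 ± 1.61 and 92.2 ± 0.961 (0.084 ± 0.049, adjusted p = 0.188), and was called higher only without 37°C replicate 1 (0.122, adjusted p = 0.0476). Scored within the whole lists instead, the same limma fit called Batf3 (−0.261, adjusted p = 0.000787), Fosb (−0.202, adjusted p = 0.0013), the merged Fosl1 region (−0.185, adjusted p = 0.00523) and both Atf3 promoters (−0.168 and −0.322, adjusted p = 0.0182 and 0.00102) lower at 39°C. The decreases at Batf3, Fosb and Atf3 thus passed the test on one scale and missed it on the other. On the whole-list scale, 63.2% of all 16198 promoter regions were called lower and 0.846% higher. For Fosl1 both fits took the highest peak of the merged region and did not test the Fosl1 promoter peak itself.

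The promoters most like that of Jund were found by the mean absolute difference in within-list percentile over the 8 libraries, among 13128 coding genes with a promoter peak in every library. Iqcn came first with a difference of 0 points, which its values fixed in advance, since they are those of the same peak in all 8 libraries. Of the separate promoters, Lbr differed by 0.0847 points.

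Distal peaks, those more than 1 kb from any start site, were fewer at 39°C in 8 of the 9 loci by the mean. The Fos locus held 12, 9, 9 and 9 at 37°C and 5, 7, 6 and 5 at 39°C, and the Fosl2 locus 15, 17, 15 and 20 against 9, 10, 10 and 14. At Junb the numbers were 8, 10, 10 and 10 against 4, 4, 7 and 6, and at Atf3 20, 18, 15 and 16 against 13, 13, 13 and 11. At those 4 loci the temperatures did not overlap, all with fewer at 39°C, and no locus had more at 39°C without overlap. Among 18386 coding genes with a distal peak, 25.8% had fewer and 0.228% more without overlap.

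The mean ratio of 39°C to 37°C was 0.590 at Fos, 0.642 at Fosl2, 0.553 at Junb and 0.725 at Atf3, where the median over all coding genes was 0.714. At each the exact permutation test gave p = 0.0286, the smallest that 4 against 4 allows, and an adjusted p of 0.110 over all 18386 genes. No gene in the series passed 0.05 after adjustment, while 4790 had an unadjusted p under 0.05. Jund held 13, 18, 18 and 17 against 11, 10, 15 and 10, and Batf3 11, 10, 8 and 10 against 6, 4, 8 and 5, so that each overlapped in a single library.

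At the other 3 loci the temperatures also overlapped. Fosb held 9, 6, 10 and 10 distal peaks at 37°C and 6, 6, 7 and 6 at 39°C, and Jun 9, 8, 6 and 9 against 7, 8, 7 and 6. Fosl1 held 7, 8, 9 and 8 against 7, 8, 8 and 10, a ratio of 1.03. Each library's own peaks were counted, so a piece of a merged promoter region can count as distal in one library and not in another. Of the merged distal regions, 5 of 6 at Fosl1 and 11 of 16 at Fosl2 were called in no library at 39°C. The mean list length at 39°C was 0.776 of that at 37°C, and per 10000 peaks of the list, or with equal numbers of peaks from each list, 0 of the 9 loci had fewer distal peaks without overlap.

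**Figure D2:**
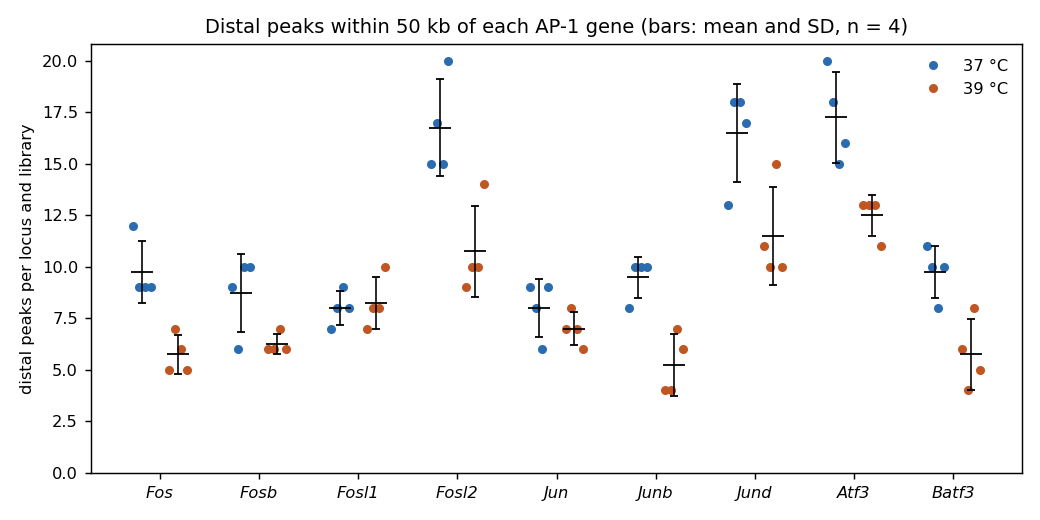
Number of distal peaks in each AP-1 locus (gene body with 50 kb on each side) in the 4 libraries at 37°C (blue) and the 4 at 39°C (orange). Points are libraries and black marks the mean and SD. The groups separate at Fos, Fosl2, Junb and Atf3, and overlap at the other 5 loci.

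Of the 151 regions, 77 were called in all 8 libraries, 51.0% against 52.9% of all consensus regions. There were 71 regions called in fewer libraries at 39°C than at 37°C (47.0% against 37.9% of all consensus regions), 1 called in more (0.662% against 5.46%) and 79 called in as many. No library at 39°C called 52 of them (34.4% against 21.2%), and 14 of those were called by the 2 deepest 37°C libraries alone. The single region never called at 37°C (1.84% of all regions were such) lay 37.4 kb upstream of Fos near another gene's start site, and was called by 2 libraries at 39°C.

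**Figure D3:**
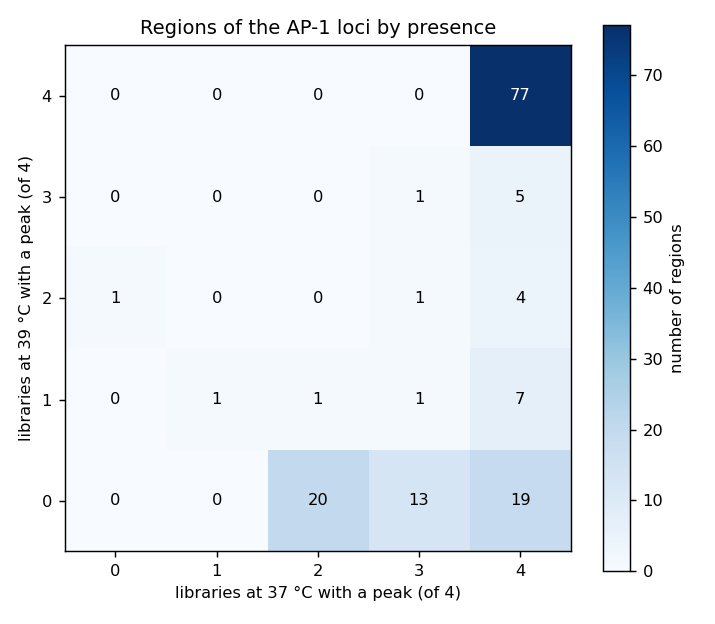
The 151 regions of the AP-1 loci by the number of libraries at 37°C (horizontal) and at 39°C (vertical) that called a peak there. The numbers are regions. The corner with all 8 libraries holds 77, and the corner with all 4 at 37°C and none at 39°C holds 19.

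Restricted regions, called by 4 of 4 libraries at one temperature and 0 of 4 at the other, numbered 19 for 37°C and 0 for 39°C. Genome-wide, 6.04% of consensus regions were restricted to 37°C and 0.314% to 39°C, where 12.6% of the AP-1 regions were restricted to 37°C. Fosb and Fosl2 each held 4, Fosl1 and Jund 3, Atf3 and Batf3 2 and Junb 1, and the Fos and Jun loci held none. Of the 19, 14 were distal and 5 lay at other genes' start sites. With equal numbers of peaks from each list, 6 of the 96 regions then in the loci were restricted to 37°C and 1 to 39°C. The shares over all regions at that setting are not given here.

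The restricted regions were low peaks. Their percentile at 37°C ran from 1.36 to 53.6 with a median of 21.4. One lay 2.27 kb upstream of Fosb, with percentiles of 35.1, 23.7, 24.1 and 31.6 in the 4 libraries. Another lay 14.8 kb upstream of Fosl2 at chr5:32119405-32121699 (19.8, 17.5, 17.8 and 33.5), and one more 8.94 kb upstream of Jund at chr8:70689358-70690642 (20.4, 16.1, 1.36 and 9.59). An intronic region of Hook2, 14.5 kb upstream of Junb, stood at 35.8, 31.6, 28.1 and 44.4.

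Distal regions called in all 8 libraries allow a comparison of height. Of the 38 in the AP-1 loci, limma called 7 lower and 6 higher at 39°C, and 25 were not called. Among the 28663 such regions of the genome 24.1% were called lower and 24.5% higher. The median score difference was 0.026 in the AP-1 loci and −0.0090 over all distal regions. Of the 39 promoter regions of these loci, counting the promoters of other genes, 13 were called lower and 2 higher, where 18.9% and 12.6% of all promoter regions were, and the median score difference was −0.072 against −0.0097 over all promoters.

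**Figure D4:**
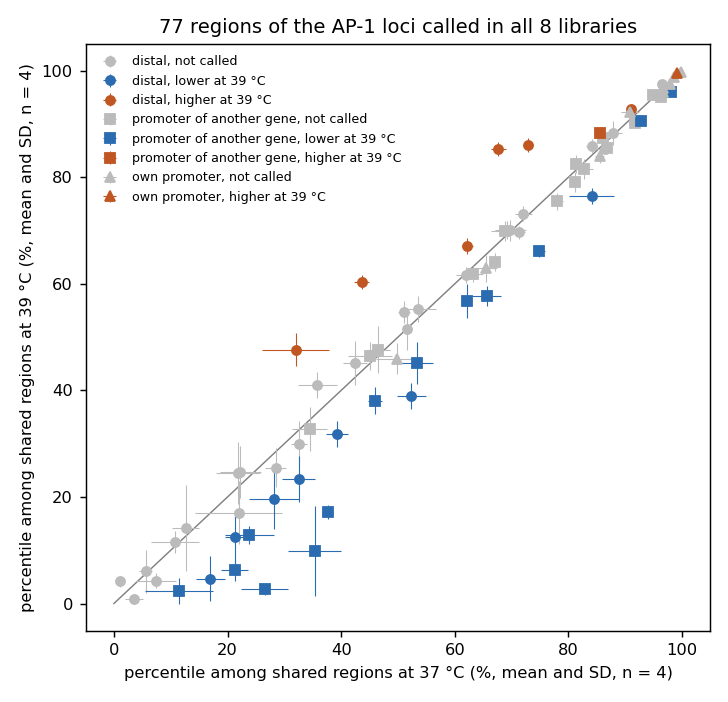
Percentile among the 44861 shared regions at 37°C (horizontal, %) and 39°C (vertical, %) for the 77 regions of the AP-1 loci called in all 8 libraries. Points are means and bars the SD (n = 4), grey marks were not called, blue marks were lower and orange marks higher at 39°C, and the line marks equality. The orange circles farthest above the line are the Atf3 regions (from 67.7 to 85.3, from 43.6 to 60.3 and from 32.0 to 47.7) and a Jund region (from 72.9 to 86.0).

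At Atf3, 3 of the 9 distal regions called in all 8 libraries ranked higher at 39°C, and at Jund 2 of 4, where 24.5% of all such regions did. The intronic region at chr1:191189006-191190856 lies 28.0 kb past the annotated start and 6.70 kb before the inner coding start, and holds the first Atf3 sequence above. It ranked at 68.6, 66.4, 66.7 and 68.9 at 37°C and at 84.6, 87.1, 84.3 and 85.2 at 39°C, so the groups were far apart. The score rose by 0.59 ± 0.035 (SE; adjusted p = 3.87e-08), and by 0.565 to 0.606 when any 1 library was left out.

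The second Atf3 region, chr1:191229789-191231093, lies 12.5 kb upstream of the annotated start. It ranked at 43.9, 42.5, 42.6 and 45.4 at 37°C and at 59.8, 61.1, 61.7 and 58.6 at 39°C. The score rose by 0.42 ± 0.041 (adjusted p = 1.62e-06). The third, in the intron at chr1:191193251-191194651 and 10.6 kb before the inner coding start, ranked at 38.9, 28.4, 25.9 and 34.8 at 37°C and at 46.2, 46.2, 46.0 and 52.3 at 39°C (0.41 ± 0.075, adjusted p = 0.000422). Scored within the whole lists, the intronic region 28.0 kb downstream was still higher, at 79.2 to 84.7 against 87.7 to 91.0, while the other 2 gave 0.0782 (adjusted p = 0.397) and 0.0144 (adjusted p = 0.903).

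The Atf3 locus also held lower regions. At the shared Atf3 and Batf3 regions the percentile among shared regions was 15.4, 15.9, 20.8 and 15.8 at 37°C and 1.83, 4.49, 10.7 and 1.54 at 39°C for chr1:191125577-191126584. For chr1:191123523-191124781 it was 19.6, 23.7, 21.5 and 20.7 at 37°C and 9.44, 8.15, 19.5 and 12.6 at 39°C. Their scores fell by 0.84 ± 0.18 (adjusted p = 0.00185) and 0.38 ± 0.12 (adjusted p = 0.0158). The second lost its call without 39°C replicate 2 (−0.306, adjusted p = 0.0514) and without both deep libraries (−0.413, adjusted p = 0.0612). Both lie downstream of Atf3 and 28.3 and 26.2 kb downstream of the start of Batf3.

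**Figure D5:**
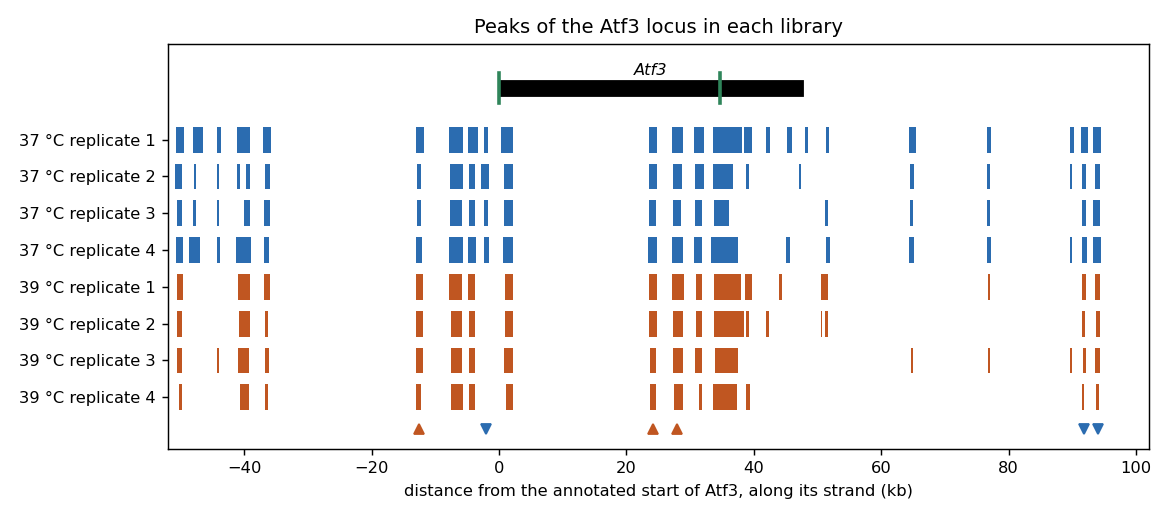
Peaks of the Atf3 locus in each library, by distance from the annotated start of Atf3 along its strand (kb). Bars are called peaks at 37°C (blue) and 39°C (orange), the black bar is the gene with its 2 coding starts in green, and triangles mark the distal regions named in the text (orange, higher at 39°C; blue, lower or restricted to 37°C). The 3 higher regions were called in all 8 libraries.

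Fos, chr12:85473890-85477273, had 2 lower distal regions and none higher. The region at chr12:85496417-85498773, 23.9 kb downstream, ranked at 88.6, 82.8, 79.2 and 85.8 at 37°C and at 76.2, 76.0, 78.5 and 75.0 at 39°C. The highest library at 39°C lay just below the lowest at 37°C. The score fell by 0.29 ± 0.061 (adjusted p = 0.00154), and without both deep libraries, which held the highest ranks at 37°C, by 0.157 (adjusted p = 0.0130). The second region, 45.8 kb downstream, fell by 0.29 ± 0.10 (adjusted p = 0.0366), with overlapping libraries, and its call was lost without replicate 1, 2 or 4 of either temperature (adjusted p = 0.0703 to 0.124) and without both deep libraries (adjusted p = 0.278). The distal differences at Fos stood beside a promoter that was not called.

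Jun, chr4:95049034-95052222, had 2 lower distal regions and Junb 1. The Jun region 16.6 kb downstream ranked at 30.1, 31.8, 31.4 and 36.6 at 37°C and at 25.7, 20.8, 18.9 and 28.2 at 39°C (score difference −0.28 ± 0.082, adjusted p = 0.0132). That 30.4 kb upstream, in an intron of Junos, ranked at 39.8, 39.8, 40.8 and 36.4 against 33.9, 30.3, 29.2 and 34.0 (−0.20 ± 0.060, adjusted p = 0.0146). The Junb region, chr8:84952185-84953567, had its summit in an exon of Rtbdn 25.8 kb downstream of Junb, and ranked at 48.7, 53.6, 54.3 and 52.9 against 38.5, 36.9, 42.5 and 38.1 (−0.34 ± 0.051, adjusted p = 8.72e-05). None of the 3 overlapped between temperatures, and the first Jun region lost its call without 37°C replicate 4 (−0.237, adjusted p = 0.0592) and without both deep libraries (−0.243, adjusted p = 0.1004).

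Jund and Fosb had higher distal regions. The Jund region at chr8:70641740-70653745, with its summit in an exon of Pgpep1 49.7 kb upstream, ranked at 73.3, 71.7, 73.0 and 73.7 at 37°C and at 87.7, 85.8, 86.2 and 84.4 at 39°C (0.47 ± 0.035, adjusted p = 1.75e-07). A second, 16.6 kb upstream, rose by 0.11 ± 0.038 (adjusted p = 0.0271), from 91.1 ± 0.734 to 92.7 ± 0.583, and lost its call without replicate 2 or 3 of either temperature (adjusted p = 0.0662 to 0.0755). The Fosb region 28.7 kb upstream ranked at 62.9, 61.9, 60.9 and 63.0 against 65.3, 68.9, 66.7 and 67.2 (0.13 ± 0.035, adjusted p = 0.0073). Scored within the whole lists, the direction turned at the second Jund region (−0.0242, adjusted p = 0.710) and at the Fosb region (−0.0953, adjusted p = 0.216). The distal regions of Fosl1 and Fosl2 that were called in all 8 libraries, 1 and 4, were not called in either direction.

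The split of calls depended on the scale. Scored within the whole lists, 30 promoter and 26 distal regions of the AP-1 loci were called lower and 1 and 2 higher. Genome-wide, 63.2% of promoter and 62.5% of distal regions were then called lower and 0.846% and 2.05% higher. With the exact permutation test in place of limma, 0 of the 44861 regions passed an adjusted p of 0.05, while 17238 had an unadjusted p under 0.05 and the smallest adjusted p was 0.0744.

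Several AP-1 genes lay inside broad peaks. Peaks covered the whole bodies of Jun, Junb and Jund in all 8 libraries, 95.3% to 100% of Fosb and 85.2% to 100% of Fos. Coverage of Fosl1 was 96.3% to 100% at 37°C and 60.2% to 77.1% at 39°C, and of Fosl2 96.9% to 100% and 58.4% to 87.3%, with no overlap at either gene, as at 31.4% of 16332 coding genes with any peak in the body. Atf3 and Batf3 were covered over 14.7% to 28.1% and 11.1% to 16.7% of their length, and their temperatures overlapped.

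The promoter peak of Fosl2, chr5:32135801-32157842, which encodes Fra-2, was the widest of the 9 in every library at 37°C. It measured 30398, 25095, 24428 and 29848 bp at 37°C and 17330, 8204, 17763 and 8021 bp at 39°C. The libraries at 39°C fell into a wider and a narrower pair, and all 4 were narrower than any at 37°C, as the promoter peaks of 23.4% of 13128 coding genes were. The log2 width differed by −1.19 ± 0.32 (SE; adjusted p = 0.0525 in limma), which did not pass 0.05, and no promoter region of the 9 genes was called wider or narrower. Fosl2 was called narrower without 37°C replicate 3 (−1.25, adjusted p = 0.0438) and without 39°C replicate 1 (−1.37, adjusted p = 0.0472). The mean width of the Fosl1 promoter peak at 39°C was 0.295 of that at 37°C, where 3 peaks were joined with that of Ccdc85b, and was not itself tested over all regions. The highest peak of the merged Fosl1 region, a different peak in 5 libraries, differed by −1.06 ± 0.29 in log2 width (adjusted p = 0.0538; −1.37 and 0.000563 without 37°C replicate 3).

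Jun had the steadiest promoter peak, with widths of 6305, 6123, 6184 and 6269 bp at 37°C and 6181, 6033, 6064 and 5964 bp at 39°C. Jund measured 21029, 9968, 8255 and 10133 bp at 37°C, where replicate 1 stood apart, and 9321, 9312, 8098 and 7891 bp at 39°C. The mean width at 39°C was 0.811 of that at 37°C for Fos, 0.959 for Fosb, 0.875 for Junb and 0.730 for Batf3. The peak at the inner Atf3 start was wider on average at 39°C, at 1.16, with overlapping libraries (exact permutation p = 0.371), while that at the upstream start had a log2 width difference of −0.35 ± 0.15 (adjusted p = 0.152).

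Over the 77 shared regions, 12 promoter regions and 8 distal regions were called narrower at 39°C and 0 wider. All 12 were promoters of other genes in these loci. Genome-wide, 10.6% of promoter and 8.36% of distal regions were called narrower, and 0.0803% and 0.331% wider. The median log2 width difference was −0.41 for the 39 promoter regions and −0.43 for the 38 distal regions, against −0.22 and −0.26 over all. Without both deep libraries, 4 promoter and 0 distal regions were called narrower, and leaving out any 1 library gave 5 to 18 and 0 to 16.

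The promoters of related genes were compared in the same fit. Of 16 other basic leucine zipper genes, including the Maf, Creb and Atf relatives that pair with or resemble AP-1 subunits, 14 had a promoter peak in all 8 libraries, Nrl in 7 and Batf in none. In limma 1 of the 14, Atf1, was called, higher at 39°C (0.20 ± 0.058, adjusted p = 0.0102), and the median difference was 0.013, where over all promoter regions 12.6% were called higher and 18.9% lower, with a median of −0.0097. Of 17 kinases and factors that act on AP-1 genes, 16 were tested, and 4 were called higher and 0 lower. Among them were Mapk8, which encodes the Jun kinase JNK1 (0.13 ± 0.048, adjusted p = 0.0412), and Map2k4 and Map3k1, kinases upstream of JNK.

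Of 19 AP-1 target genes, 17 were tested and 6 were called lower and 1 higher at 39°C, with a median score difference of −0.12, where all promoter regions gave 18.9% lower, 12.6% higher and a median of −0.0097. Spp1, which encodes osteopontin, ranked at 44.9 ± 2.11 at 37°C and 24.1 ± 4.15 at 39°C (−0.58 ± 0.072, adjusted p = 1.47e-05). Among the others were Plau and Plaur, which encode urokinase and its receptor, the cyclin gene Ccnd1 and the chemokine gene Ccl2, with differences from −0.22 for Plaur to −0.12 for Plau. Cdkn1a, which encodes the cell cycle inhibitor p21, was higher (0.15 ± 0.043, adjusted p = 0.0112). The matrix metalloproteinase genes Mmp3 and Mmp13 had no promoter peak in any library.

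The AP-1 motif TGANTCA lay within 100 bases of the summit in 24 of the 92 distal regions of the AP-1 loci, 26.1% (95% exact Clopper-Pearson interval 17.5% to 36.3%), where 34.3% of all 62699 distal regions held it. The interval covers counting error only. Among the 38 called in all 8 libraries 15 held it (39.5% against 41.9% over all), and among the 14 distal regions restricted to 37°C 1 did (7.14% against 22.4%). By locus, Atf3 held 6 such regions of 17, Batf3 5 of 10, Jun 4 of 9, and Junb 0 of 9.

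The AP-1 motif stood in 3 of the 7 distal regions called lower and 3 of the 6 called higher, where 42.4% and 43.4% of all such distal regions held it. The p53 decamer stood in 1 of the 7 and 2 of the 6, and in 5.49% and 12.0% of all distal regions called lower and higher. Over the 92 distal regions the CRE was found in 1, the CArG box in 3, the TEAD motif in 13 and the p53 decamer in 10, with 0.297%, 1.07%, 19.0% and 7.95% over all distal regions. RefSeq promoter sequences, 250 bases before to 50 after the start, matched 8 of the 9 genes. None of the 8 held the AP-1 motif (7.81% of all 32851 promoters), the CRE (1.79%), the CArG box (1.63%), the TEAD motif (14.7%) or the p53 decamer (8.36%) in this window. TATAAA on the gene's strand, a motif added after the sequences were seen, was found at Fos and Junb, and in 8.32% of all promoters.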

How the data were processed

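Chromatin accessibility was assayed by ATAC-seq in 8 SN4741 libraries (50000 cells and 12 amplification cycles each), 4 at 37°C and 4 at 39°C, grouped by the sample labels. Per the paper's methods and the submitters' processing notes, the authors aligned reads to mm10 with Bowtie2 2.4.1, used SAMtools 1.15.1 and Picard 2.26.11, called peaks in each library separately with MACS3 3.0.0a7 on paired fragments without a control or local background (q threshold 0.05), and removed blacklisted regions with bedtools 2.30.0. The deposited peak lists give position, length, summit, pileup signal, −log10 p-value, −log10 q-value and fold enrichment ratio for each peak, so a site without a peak has no value and read counts were not used here. Without local background, −log10 q follows pileup and library depth, so only ranks within a library were compared. Libraries kept 49.8 to 169 M fragments after the caller's own duplicate filter. The part of depth in the number and width of peaks was not tested.

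The 9 genes, the gene lists and the tests were chosen with earlier results of these data known. Peaks of the 8 lists were merged where they shared at least 1 bp, and regions called in at least 2 libraries were kept. A region's value in a library was that of its highest peak there. Promoters lay within 1 kb of a GENCODE M21 start site. Distal peaks per locus were compared by two-sided exact permutation (70 assignments). Ranks among the 44861 regions called in all 8 libraries, as normal scores, and log2 peak widths were fitted with limma 3.58.1 (trend, R 4.3.3) over all regions, with Benjamini-Hochberg adjustment and a threshold of 0.05. Both tests were first checked on simulated data. Motifs were searched on GRCm38 with Python 3.11.15 and pysam 0.24.0. Named were each gene's promoter regions and at most 3 distal regions per locus and direction, restricted to 1 temperature or called by the rank fit, by smallest p and then highest mean percentile, and the 3 promoters most like that of the gene with the smallest promoter p. Some genes that these rules and lists reach are not reported here. All 17, 16 and 19 genes of the kinase, basic leucine zipper and target lists matched the annotation. Alternatives were a higher score threshold (−log10 q of at least 5), equal numbers of peaks (54845), libraries left out, other windows, other region definitions, other scales, exact tests and a replicate block.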

Additional observations from a re-analysis of the deposited data

Results flagged for a closer look

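In 54 groups of 4 libraries (promoter percentile, promoter peak width and distal peak number for each gene and temperature), 10 values stood apart from the other 3 by more than Dixon's 95% critical value for 4 samples. Chance gives about 1 in 20 groups for continuous values, a rate that does not hold for tied counts, which make up 4 of the 10. Of the others, 3 were promoter peak widths in 37°C replicate 3, the library with the fewest kept fragments at 37°C: 5069 bp at Fos, 7021 bp at Fosl1 and 9925 bp at Junb, where the other 3 libraries had 8501 to 9009, 17933 to 18280 and 13819 to 14182 bp. The same library held the Fosl1 promoter percentile of 91.5, against 98.2 to 98.3 in the others, whose Fosl1 peak was joined with that of Ccdc85b. The Jund promoter peak of 37°C replicate 1, the deepest library, was 21029 bp wide, against 8255 to 10133 bp. The Fosb promoter peak of 39°C replicate 4, which has the shortest list, was 7431 bp wide, against 10331 to 10785 bp. The 4 tied counts were distal peak numbers set against 3 equal counts, where any difference is flagged: 12 against 9 at Fos in 37°C replicate 1, 7 against 6 at Fosb in 39°C replicate 3, 8 against 10 at Junb in 37°C replicate 1, and 11 against 13 at Atf3 in 39°C replicate 4. The part of depth in these values was not tested.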

How the results depend on the processing

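Promoter presence of all 9 genes held with a −log10 q of at least 5, with equal numbers of peaks, with 5 kb promoters, with start sites of coding transcripts alone, and with each library or both deep libraries left out. The 4 loci with fewer distal peaks became 2 with a −log10 q of at least 5, 0 with equal numbers of peaks, 0 per 10000 peaks and 1 with 20 kb windows, where 1 locus had more, and were 4 to 6 with a library left out. Mean distal differences changed sign with equal numbers of peaks at Fosb (1.0) and Fosl2 (3.5), with 5 kb promoters at Fosb (1.75), per 10000 peaks at Jun (0.129), and at Fosl1 with 100 kb windows (−13.0), without both deep libraries (−0.25) and with a library left out (−0.333 to 0.667). Regions restricted to 37°C numbered 12 with a −log10 q of at least 5, 6 with equal numbers (1 at 39°C), 8 and 33 with 20 and 100 kb windows, 19 to 28 with a library left out, and 1 was restricted to 39°C with summit windows. Rank calls within the whole list were 30 promoter regions lower and 1 higher, and 26 distal regions lower and 2 higher, and with the exact test all 4 counts were 0. Higher promoter calls were 1 to 4 with a library left out (4 without 37°C replicate 1, 1 without replicate 4 of either temperature) and 0 without both deep libraries. Pileup ranks gave the same calls because both columns order the peaks alike.

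Scored within the whole list, promoter scores turned negative at Fos (−0.0501), Fosl2 (−0.0686), Jun (−0.0841) and Junb (−0.0232), as did the distal regions of Fosb (−0.0953) and, 16.6 kb upstream, Jund (−0.0242). The Fosl2 promoter score was −0.0208 without both deep libraries and −0.0205 to 0.0445 with a library left out, and the Fosb promoter width difference 0.118 and −0.197 to 0.0718. Narrower calls were 4 promoter and 0 distal regions without both deep libraries, 0 and 0 with the exact test, and with a library left out 5 to 18 and 0 to 16, highest without 37°C replicate 3. The distal count moved over 1.5 times with each of the 8 left out and the promoter count with 6 of them, all but 37°C replicate 3 and 39°C replicate 1. The motif share was 44.6% over whole regions, which are longer, where all distal regions gave 54.9%.

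No pairing by replicate number was detected: deviations of same-numbered libraries correlated at 0.120, −0.0644, 0.0760 and −0.0576, and not every library correlated best with its own number. The labels do not give the pairing, and these correlations cannot exclude a shared culture or day. With a replicate block, 6 promoter and 1 distal regions were called narrower, 6 distal regions lower, and the Fos region 45.8 kb downstream lost its call (adjusted p = 0.0515). The paired exact test of distal numbers cannot go below 0.125. Depth limits what a missing peak means: a site under the caller's threshold in a shallower library may still be open. Causes were not tested.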
